A study of Mus musculus with 4 samples.

Results

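Collagens, the enzymes that modify and cross-link them, the metalloproteinases that cut the matrix and the inhibitors of those proteinases were followed in mouse livers that lack Ubc13 in hepatocytes. The members were chosen by gene symbol alone: collagen chains (Col), matrix metalloproteinases (Mmp), tissue inhibitors of metalloproteinases (Timp), the ADAM and ADAMTS proteinases, lysyl hydroxylases (Plod) and the lysyl oxidases Lox and Loxl1 to Loxl4. The rule found 136 genes among the 56953 rows of the count table, of which 78 had enough reads to be tested and 58 did not. Of those 58 genes, 25 had no read in any library.

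The study compared 2 deletion libraries with 2 control libraries from the liver of mice 2 months old, fed a normal diet. Deletion mice carried Ubc13 flox/flox alleles and were positive for the transgene the labels call Alb, taken here as Cre recombinase under the albumin promoter, and the labels describe them as having a hepatic Ubc13 deletion. Control mice carried the same flox/flox alleles without that transgene and are called WT in the labels. The albumin promoter is active in hepatocytes, so stellate, endothelial and immune cells are expected to keep the gene. Whether biliary cells keep it is not known from the labels. The labels do not say that the replicates came from separate animals, so p-values measure only the spread between these samples. For the controls that spread may be technical. The deletion libraries differed in Y-linked RNA, as given below, and so were not made from the same RNA. Deletion replicate 2 held Y-linked RNA together with Xist, and whether animals were pooled is not known. They name liver as the tissue while the library protocol speaks of primary hepatocyte RNA, and which of these was sequenced is not known.

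Collagens are triple helices of 3 chains that are hydroxylated and cross-linked before they form fibrils, networks or filaments. In liver, fibrillar collagens come mainly from stellate cells and portal fibroblasts, basement membrane collagen from stellate and endothelial cells, and type XVIII collagen from hepatocytes. MMPs are secreted or membrane-bound zinc proteinases that cut collagens and other matrix proteins, TIMPs block them, ADAMs release the outer parts of membrane proteins, and ADAMTS enzymes cut proteoglycans and procollagens. Fibrosis of fatty liver disease is known for a rise of fibrillar collagen and TIMP1.

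Values are CPM, counts relative to the total of the library, with totals adjusted by the trimmed mean of M values (TMM). These were 3' tag libraries, in which read number does not grow with transcript length. How evenly transcripts of different genes were caught was not tested, so ratios between genes are ratios of CPM. A gene is said to have risen or fallen where the edgeR quasi-likelihood test gave a Benjamini-Hochberg adjusted p under 0.05 over all 14600 tested genes. Fold changes are deletion over control, and values after ± are the standard error (SE) for log2 fold changes and the SD over 2 libraries for CPM.

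The libraries held 16270424 to 17800138 counts. Ube2n, the gene of Ubc13, had 5.88 and 5.97 CPM in the deletion libraries against 41.3 and 44.9 CPM in the controls. The summed CPM of 4 Y-linked genes, divided by the mean of the controls, came to 0 and 0.613 in the deletion libraries, against 0.969 and 1.03 in the controls, and Xist had 9590 and 3896 counts in the deletion libraries against 9 and 2 in the controls. Genotype and sex-linked RNA therefore ran together in every comparison, and their parts cannot be told apart. Macrophage markers summed to 840 and 781 CPM in the deletion libraries against 152 and 171 CPM in the controls (5 of 11 higher, 0 lower). Most of the deletion sums lay in Cd74 (431 and 312 CPM against 41.1 and 47.5), Cybb (183 and 190 against 13.1 and 17.3) and Cd9 (68.3 and 159 against 13.1 and 11.7). The 6 macrophage markers not called had log2 fold changes from 0.37 (Itgax) to 1.27 (Ccr2). Cholangiocyte markers summed to 1387 and 1994 CPM against 138 and 81.3 CPM (2 of 9 tested higher). Nearly all of the deletion sums lay in Spp1 (24143 and 37227 counts in the deletion libraries against 817 and 764). The other marker called higher was Sox9. The 7 tested but not called had log2 fold changes from -2.62 (Krt19) to 1.45 (Cldn7), with Krt7, Cftr and Epcam also below 0. Hepatocyte markers summed to 63324 and 59586 CPM against 151454 and 148654 CPM (2 of 8 lower). Most of these sums lay in Alb (45310 and 42886 CPM against 119049 and 114960), which was not called (edgeR adjusted p = 0.0612). The markers called lower were Ttr and Pck1, and the 6 not called had log2 fold changes from -1.41 (Alb) to -0.21 (Hnf4a). Stellate cell markers summed to 282 and 254 CPM against 342 and 317 CPM (1 of 10 lower). Most of the difference between these sums lay in Ecm1, the marker called lower (93.9 and 76.4 CPM against 160 and 148). The other 9 had log2 fold changes from -1.28 (Des) to 0.46 (Rgs5). Activated fibroblast markers summed to 76.5 and 114 CPM against 102 and 56.0 CPM (1 of 8 tested higher). The marker called higher was Spon2, and the 7 tested but not called had log2 fold changes from -2.38 (Acta2) to 0.39 (Pdgfra). Sinusoidal endothelial markers summed to 240.3 and 257 CPM against 267 and 308 CPM (0 of 8 called). Defining markers of stellate cells, macrophages, endothelium and hepatocytes were present in every library. In such bulk libraries fewer cells of a type and less RNA per cell cannot be told apart.

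Of the 78 tested members, 8 rose and 1 fell in the deletion livers. These were 10.3% and 1.28% of the members, while across all tested genes 4.41% rose and 2.16% fell, 6.57% in all. Both deletion libraries lay above both controls for 24 tested members and below them for 20, against 28.7% and 27.3% of all tested genes. The members that rose were the membrane-bound metalloproteinases Mmp15, Mmp14 and Mmp24, the inhibitor Timp1, the proteinase genes Adam10, Adam32 and Adamts1, and the collagen chain Col5a3. Col20a1, a collagen chain, fell. The median log2 fold change was 0.12 over the 78 tested members and -0.0036 over all tested genes. By class, MMPs had a median of 1.13 (that of Mmp14, so the value of Mmp24 does not set it), ADAMs 0.14, lysyl hydroxylases 0.13, collagens -0.08, ADAMTS genes -0.13, lysyl oxidases -0.17 and TIMPs -0.29.

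How many members passed depended on the libraries used. Without control replicate 1, 15 members rose and 3 fell, and without control replicate 2, 9 rose and 2 fell. Without deletion replicate 1, 4 rose and 0 fell, and without deletion replicate 2, 1 rose and 0 fell. With the share of Y-linked RNA as a covariate 0 members passed in either direction, and with the replicate number as a block 1 rose and 0 fell. In the covariate fit Ube2n, the deleted gene, did not pass either (log2 fold change -2.82, edgeR adjusted p = 0.0643). Without the covariate it had -2.86 (edgeR adjusted p = 0.00188). The median log2 fold change of tested members was 0.1214 with the covariate and 0.1227 without it. With library sizes alone as scaling, 12 members rose and 1 fell; that scaling moved the median of all genes up by 0.29 on the log2 scale, and 88.5% of all called genes were then higher, against 67.2% with TMM.

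**Figure D1:**
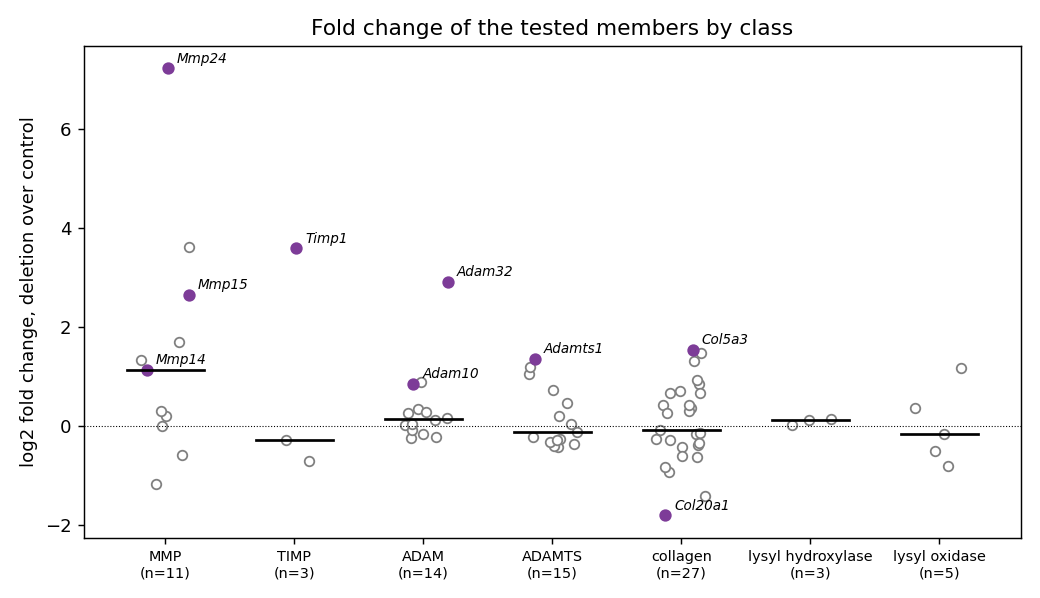
Each point is the log2 fold change (deletion over control) of 1 tested member by class; filled points passed the test, open points did not, and black bars are class medians. The MMP median lies at 1.13, while the collagen median lies at -0.08; the height of the Mmp24 point depends on the prior count of the fit, because the controls had 0 counts.

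The stretches just upstream of the starts of the 3 MMPs and the TIMP that rose are shown because they let these genes be set beside Col20a1, the member that fell; those of Adam10, Adamts1 and Col5a3 were searched but are not printed. RefSeq gave upstream stretches for 91 of the 136 members and for 8 of the 9 that passed (GRCm38.p6). Each is the 250 bases before the start, 5′ to 3′ on the gene's strand, and capitals mark the GC box, searched as GGGCGG on both strands, so that it appears as CCGCCC where it lies on the other strand.
Mmp15, chr8:95352046-95352295, plus strand: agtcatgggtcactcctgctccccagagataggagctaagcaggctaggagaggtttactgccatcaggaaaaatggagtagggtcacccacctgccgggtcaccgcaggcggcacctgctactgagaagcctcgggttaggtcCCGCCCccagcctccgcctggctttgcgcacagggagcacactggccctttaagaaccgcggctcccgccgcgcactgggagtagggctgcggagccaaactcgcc
Mmp14, chr14:54431348-54431597, plus strand: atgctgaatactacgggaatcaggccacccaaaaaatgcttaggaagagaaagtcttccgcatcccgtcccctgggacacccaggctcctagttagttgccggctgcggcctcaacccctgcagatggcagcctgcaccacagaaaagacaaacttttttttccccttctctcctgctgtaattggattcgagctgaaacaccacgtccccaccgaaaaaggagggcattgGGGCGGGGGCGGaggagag
Mmp24, chr2:155775092-155775341, plus strand: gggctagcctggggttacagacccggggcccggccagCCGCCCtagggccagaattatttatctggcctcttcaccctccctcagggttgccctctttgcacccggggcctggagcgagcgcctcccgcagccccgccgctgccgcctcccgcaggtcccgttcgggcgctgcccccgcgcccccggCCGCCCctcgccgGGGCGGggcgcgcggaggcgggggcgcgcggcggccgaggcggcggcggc
Timp1, chrX:20869916-20870165, plus strand: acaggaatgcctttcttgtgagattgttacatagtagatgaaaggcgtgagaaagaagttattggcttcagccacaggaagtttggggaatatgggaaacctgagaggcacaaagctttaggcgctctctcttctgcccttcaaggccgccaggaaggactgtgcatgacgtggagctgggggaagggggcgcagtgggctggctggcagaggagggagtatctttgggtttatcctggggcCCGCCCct
Col20a1, chr2:180986285-180986534, plus strand: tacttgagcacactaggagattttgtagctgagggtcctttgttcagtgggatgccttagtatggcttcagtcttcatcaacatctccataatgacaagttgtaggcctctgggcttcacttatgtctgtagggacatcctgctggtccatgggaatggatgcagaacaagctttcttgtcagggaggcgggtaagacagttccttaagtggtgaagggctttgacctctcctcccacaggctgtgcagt

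Some genes have more than 1 start, so that the 91 members gave 99 stretches. A GC box was found in 7 of 7 stretches of members that rose, and in 0 of 1 of members that fell. It was in 54.0% of 50 stretches of tested members that did not pass and in 32.7% of all 32851 stretches. The match in Mmp15 began 106 bases before the start, and those in Mmp14 began 19 and 13 bases before it. G and C made up 63.6% of the Mmp15 stretch, 79.2% of that of Mmp24, 55.2% of that of Mmp14, 54.4% of that of Timp1 and 49.2% of that of Col20a1. For Adam10, Adamts1 and Col5a3 it was 74.0%, 65.6% and 62.8%. The AP-1 motif, searched as TGACTCA and TGAGTCA on both strands, was in 0 of the 7 stretches of members that rose, in 10.1% of the 99 stretches of all members and in 4.5% of all stretches. Its position was listed only for Mmp13, 35 bases before the start, and for Mmp12, 44 bases before a start. Which other members held the motif was not listed. These matches are descriptions of letters, not of binding.

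Among the metalloproteinases, 3 of 11 tested MMPs rose, 0 fell and 8 did not pass. All 3 code for membrane-type MMPs anchored by a transmembrane stretch near their carboxyl end, a grouping made after their values were seen. Mmp15 (MT2-MMP, which cuts pericellular matrix) had 230 and 231 CPM in the deletion livers, against 41.0 and 32.4 CPM in the controls. Both deletion livers lay far above both controls, and they differed little from each other. Mmp15 rose 6.28-fold (log2 fold change 2.65 ± 0.18, edgeR adjusted p = 0.00378, n = 2 per group) and kept its call with any 1 library left out (log2 fold changes of 2.49 to 2.83). The gene (ENSMUSG00000031790) lies on chromosome 8 from 95352268 to 95375080. With the share of Y-linked RNA as a covariate its edgeR adjusted p was 0.0584, in a fit where Ube2n did not pass either.

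Mmp14 (MT1-MMP, a collagenase of the cell surface that activates pro-MMP2) had 85.3 and 121 CPM in the deletion livers, against 43.1 and 51.0 CPM in the controls. The groups did not overlap, and deletion replicate 2 was the higher of its pair. Mmp14 rose 2.20-fold (log2 fold change 1.13 ± 0.21, edgeR adjusted p = 0.0348), but not without deletion replicate 2 (adjusted p = 0.139). Timp2, the inhibitor that MT1-MMP uses to hold pro-MMP2, had 16.7 and 14.6 CPM in the deletion livers against 20.8 and 17.5 CPM in the controls (log2 fold change -0.29 ± 0.18, edgeR adjusted p = 0.369). The ratio of Mmp14 to Timp2 CPM was 5.11 and 8.31 in the deletion livers, and 2.07 and 2.91 in the controls. Mmp2 itself, a gelatinase, had 4.73 and 4.89 CPM in the deletion livers against 8.33 and 6.11 CPM in the controls and did not pass (log2 fold change -0.59 ± 0.27, edgeR adjusted p = 0.252).

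Mmp24 (MT5-MMP, known best from the nervous system) had 20 and 21 counts in the deletion livers and 0 in both controls. It was at least 5.57-fold higher in the deletion livers, taking 3 counts in each control library as the floor, and the lower 95% counting limit of the summed counts was 8.68-fold (edgeR adjusted p = 0.0273). Leaving out either deletion replicate ended the call (adjusted p = 0.116 without replicate 1 and 0.164 without replicate 2). The last 637 bases of Mmp24 lie on the opposite strand of BC029722, which had 217 and 194 counts in the deletion livers and 121 and 96 in the controls, and how far reads of this neighbour were counted as Mmp24 was not tested. Mmp16, the remaining MMP of that kind, had 0 counts in every library. Of the MMPs with a glycolipid anchor, Mmp17 had 0.220 and 0.875 CPM in the deletion livers against 1.54 and 0.962 CPM in the controls (edgeR adjusted p = 0.357), and Mmp25 had 4 and 1 counts against 3 and 1 and was not tested.

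No secreted MMP passed the edgeR test with TMM scaling and the count filter, but with other scalings, filters or tests Mmp12 and Mmp9 did. Mmp12, the elastase of macrophages, had 1.32 and 5.97 CPM in the deletion livers, against 0.370 and 0.206 CPM in the controls. The groups did not overlap, but the deletion livers differed widely from each other. Its log2 fold change was 3.62 ± 0.89 (edgeR adjusted p = 0.0680). It passed with DESeq2 (0.00176), with library sizes alone (0.0448), with no filter on low counts (1.51e-09), and when control replicate 1 (0.0137), control replicate 2 (0.0198) or deletion replicate 1 (0.0210) was left out. Mmp9, a gelatinase of myeloid cells, had 1.32 and 1.44 CPM against 0.432 and 0.412 CPM (log2 fold change 1.69 ± 0.46, edgeR adjusted p = 0.0901, and 0.0473 with library sizes alone). The summed levels of the myeloid marker lists were also higher. Beside the macrophage list given above, the Kupffer cell list summed to 591 and 476 CPM in the deletion livers against 283 and 386 CPM in the controls (1 of 6 higher, 0 lower). The 8 neutrophil genes summed to 9.29 and 7.82 CPM against 2.34 and 5.15 CPM (0 of 3 tested called). S100a8 had 31 and 28 counts against 2 and 11, S100a9 49 and 41 against 5 and 15, and Csf3r 84 and 62 against 28 and 39. The rest were below the filter. Ly6g had 0 counts in every library, Cxcr2 had 1 and 5 counts against 0 and 6, and Retnlg had 1 and 6 against 1 and 3. Mpo had 2 and 4 counts against 2 and 1, and Elane had 1 and 6 against 0 in both controls. The part of myeloid cells in the values of Mmp12 and Mmp9 was not tested. Mmp19, by level the MMP next to Mmp15 and Mmp14, had 74.3 and 60.7 CPM in the deletion livers and 65.6 and 68.8 CPM in the controls (log2 fold change 0.01 ± 0.16, edgeR adjusted p = 0.989).

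The MMP genes that lie together on chromosome 9, between 7272514 and 7699585, gave few reads. These 10 genes, which include the collagenases and stromelysins of the mouse, had 76 and 164 counts together in the deletion livers against 33 and 19 in the controls, 4 of them had no read in any library, 2 were tested and 0 were called. Mmp27 had 1.59 and 1.75 CPM in the deletion livers against 0.494 and 0.824 CPM in the controls (log2 fold change 1.34 ± 0.46, edgeR adjusted p = 0.145). Mmp13, the main interstitial collagenase of the mouse, had 18 and 10 counts against 4 and 0 and was not tested. Mmp7, Mmp3 and Mmp8 were also below the filter, with 4 and 1, 0 and 2, and 1 and 1 counts in the deletion livers, against 14 and 2, 1 and 0, and 0 and 2 counts in the controls. Together all MMPs reached 405 and 432 CPM in the deletion livers against 166 and 163 CPM in the controls, and Mmp15 alone made up 56.9% and 53.4% of that sum against 24.7% and 19.9%. Without Mmp15 the sums were 174.8 and 201.3 CPM against 124.8 and 130.2 CPM.

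**Figure D2:**
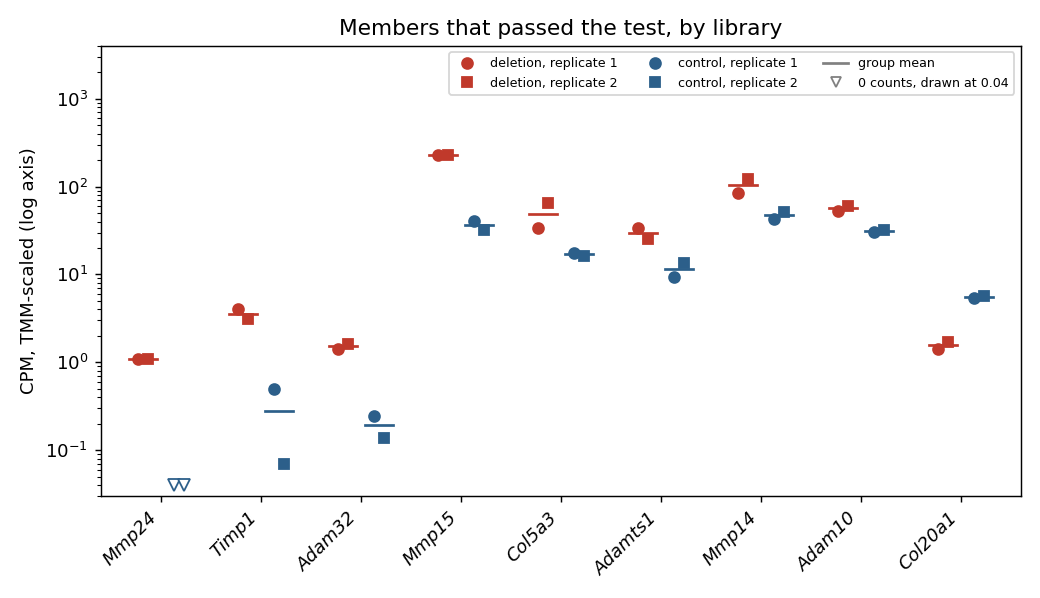
CPM (log axis) of the 9 members that passed in each library, with deletion libraries on the left and controls on the right of each gene and bars at the group means. All 9 members, chosen by the test on these libraries, have groups that do not overlap, as do 56% of all tested genes. Mmp24 had 0 counts in both controls, drawn as open triangles.

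Of the 3 tested inhibitors, 1 rose and 2 did not pass. Timp1, the inducible inhibitor, had 74 and 60 counts (4.07 and 3.09 CPM) in the deletion livers, against 8 and 1 counts (0.494 and 0.0687 CPM) in the controls. The groups did not overlap, and the controls were close to the floor of 3 counts per library. Timp1 rose 12.1-fold (log2 fold change 3.60 ± 0.68, edgeR adjusted p = 0.0346), with log2 fold changes of 5.56 without control replicate 1 and 2.84 without control replicate 2. The call ended when deletion replicate 1 (adjusted p = 0.124) or deletion replicate 2 (0.117) was left out. Timp1 lies on the X chromosome, from 20870166 to 20874735, inside Syn1 on the opposite strand (17 and 23 counts in the deletion livers, 1 and 6 in the controls). Timp3, the inhibitor bound to the matrix, which also blocks ADAM17, had 5.99 and 5.71 CPM in the deletion livers against 9.75 and 9.34 CPM in the controls. Neither deletion liver reached a control, but Timp3 did not pass (log2 fold change -0.71 ± 0.22, edgeR adjusted p = 0.120). Timp4 had 8 and 7 counts in the deletion livers against 0 and 2 and was not tested.

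Among the membrane proteinases of the ADAM family, 2 of 14 tested members rose and 0 fell. Adam10, which cuts Notch, cadherins and CXCL16 at the cell surface, had 52.9 and 60.0 CPM in the deletion livers, against 30.4 and 31.9 CPM in the controls. The groups did not overlap. Adam10 rose 1.81-fold (log2 fold change 0.86 ± 0.15, edgeR adjusted p = 0.0284), but not without deletion replicate 1 (adjusted p = 0.0703) or deletion replicate 2 (0.162). Adam17, the enzyme that releases TNF and EGF receptor ligands, had 34.3 and 30.3 CPM in the deletion livers against 26.2 and 27.5 CPM in the controls (log2 fold change 0.27 ± 0.15, edgeR adjusted p = 0.335), and Adam9 had 63.1 and 69.3 CPM against 59.2 and 69.0 CPM (log2 fold change 0.05 ± 0.16). Adam9, Adam10 and Adam17 were the ADAMs with the highest CPM.

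Adam32, known mainly from testis, had 26 and 31 counts in the deletion livers against 4 and 2 in the controls. It rose 7.54-fold from this low level (log2 fold change 2.91 ± 0.55, edgeR adjusted p = 0.0352). Adjusted p was 0.0557 when control replicate 2 was dropped, and 0.161 and 0.256 when deletion replicates 1 and 2 were dropped in turn. Of the 19 ADAMs that were not tested, 13 had no read in any library; many of these are genes of sperm.

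Of 15 tested ADAMTS and ADAMTS-like genes, 1 rose and 0 fell. Adamts1, which cuts the proteoglycans versican and aggrecan, had 33.6 and 25.1 CPM in the deletion livers, against 9.38 and 13.5 CPM in the controls. Both deletion livers lay above both controls, and Adamts1 rose 2.57-fold (log2 fold change 1.36 ± 0.24, edgeR adjusted p = 0.0303). Leaving out deletion replicate 1 or deletion replicate 2 ended the call (adjusted p = 0.109 and 0.0523). Adamts10 and Adamts7, the other ADAMTS genes of high level, had log2 fold changes of -0.13 ± 0.18 and -0.40 ± 0.25 and did not pass (edgeR adjusted p = 0.726 and 0.385). Adamtsl1, a relative without a proteinase domain, had 2.03 and 2.26 CPM in the deletion livers against 1.05 and 0.824 CPM in the controls (log2 fold change 1.19 ± 0.39, edgeR adjusted p = 0.136). Adamts4, another aggrecanase, had 9 and 27 counts against 4 and 3 and was below the filter.

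**Figure D3:**
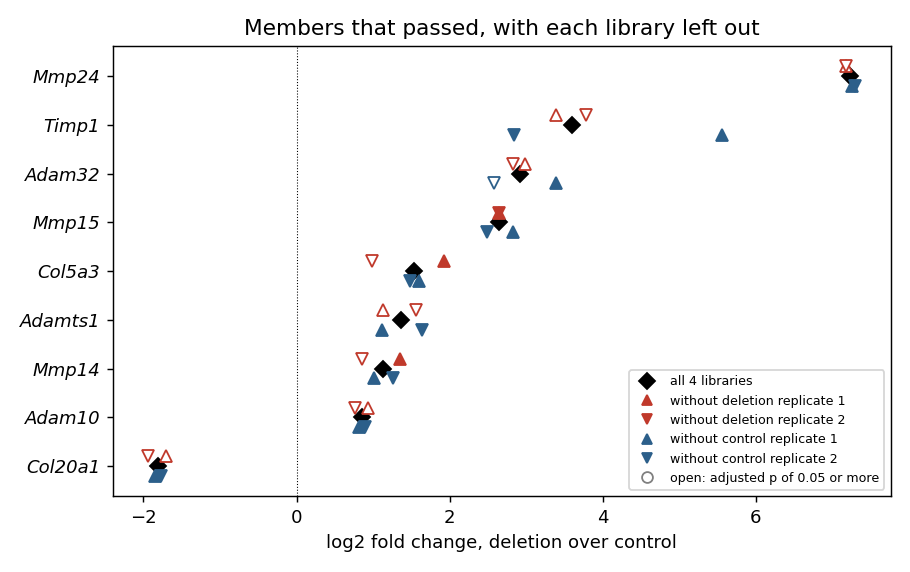
Log2 fold change (deletion over control) of the 9 members that passed, with all 4 libraries (black diamonds) and with each library left out in turn (triangles; open where the adjusted p was 0.05 or more). Mmp15 keeps filled triangles throughout, between 2.49 and 2.83; for the other 8 genes leaving out deletion replicate 2 gives an open triangle.

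Of 27 tested collagen chains, 1 rose, 1 fell and 25 did not pass. The fibrillar chains that make up scar tissue had overlapping groups. Col1a1, a chain of type I collagen, had 63.3 and 70.7 CPM in the deletion livers, against 66.6 and 36.9 CPM in the controls (log2 fold change 0.37 ± 0.28, edgeR adjusted p = 0.475). Its partner Col1a2 had 75.3 and 77.5 CPM against 105 and 66.6 CPM (log2 fold change -0.17 ± 0.23, edgeR adjusted p = 0.722). Col3a1, the chain of type III collagen, had 175 and 191 CPM against 233 and 155 CPM (log2 fold change -0.08 ± 0.22, edgeR adjusted p = 0.868). In all 3 genes the spread lay between the controls, of which replicate 1 was the higher.

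Several chains gained a call when control replicate 1 was left out, which also raised the calls over all genes to 1700, against 959. Without it Col1a1 was called higher in the deletion livers, with a log2 value of 0.86 (edgeR adjusted p = 0.0174), and Col1a2 and Col3a1 had log2 fold changes of 0.19 and 0.24 without a call. Col12a1, Col15a1 and Col4a5 were then also called higher (adjusted p = 0.0373, 4.74e-05 and 0.0237), at log2 values of 1.27, 2.43 and 1.24, against 0.85, 1.31 and 0.66 with all libraries. Col15a1 and Col4a5 passed with all libraries where no filter on low counts was used (1.96e-06 and 0.0493). Col14a1 was called lower without control replicate 1 (0.0281), but also with all libraries under DESeq2 (0.0377) or no filter (0.0282). Control replicate 1 also held 557 counts of the smooth muscle and myofibroblast actin Acta2 and 281 of the stellate and muscle gene Des, against 71 and 82 in control replicate 2. The deletion livers had 65 and 77 counts of Acta2 and 72 and 107 of Des. The bile duct keratin genes Krt19 and Krt7 had 635 and 90 counts in control replicate 1, against 47 and 26 in control replicate 2; the deletion livers had 53 and 77 counts of Krt19 and 13 and 35 of Krt7. The part of muscle, fibroblast or bile duct RNA in these collagen values was not tested.

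Type V collagen sits inside type I fibrils and limits their width, and 1 of its 3 chains passed. Col5a3 had 33.6 and 65.0 CPM in the deletion livers, against 17.7 and 16.2 CPM in the controls. The groups did not overlap, and deletion replicate 2 lay well above replicate 1. Col5a3 rose 2.91-fold (log2 fold change 1.54 ± 0.32, edgeR adjusted p = 0.0438). Without deletion replicate 2 the log2 fold change was 0.99 (adjusted p = 0.0962), and the call was also lost with limma-voom (0.0606) and with robust fitting (0.0511). Col5a1, the common chain, had 24.9 and 30.3 CPM in the deletion livers against 36.1 and 30.6 CPM in the controls (log2 fold change -0.27 ± 0.18, edgeR adjusted p = 0.402), and Col5a2 had 14.8 and 18.4 CPM against 16.5 and 10.4 CPM (0.31 ± 0.26). The ratio of Col5a3 to Col5a1 was 1.35 and 2.14 in the deletion livers against 0.491 and 0.530 in the controls, and was not tested.

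Type IV collagen forms the network of basement membranes, and its genes lie in head-to-head pairs. On chromosome 8 Col4a1 ends its 5′ side at 11312826 on the minus strand and Col4a2 starts at 11312805 on the plus strand, so that their first exons overlap by 22 bases. Col4a1 had 192 and 178 CPM in the deletion livers, against 120 and 113 CPM in the controls, while Col4a2 had 77.7 and 85.1 CPM against 93.2 and 85.2 CPM. Col4a1 thus lay above both controls, and Col4a2 stood at or just below them. Neither passed (log2 fold change 0.66 ± 0.15, edgeR adjusted p = 0.0538 for Col4a1, and -0.13 ± 0.15, adjusted p = 0.644 for Col4a2), though Col4a1 passed with DESeq2 (0.00737), with library sizes alone (0.0151) and with no filter on low counts (0.00996). The ratio of Col4a1 to Col4a2 CPM was 2.47 and 2.09 in the deletion livers, against 1.29 and 1.33 in the controls. No test of this ratio was run; with 2 libraries per group an exact permutation test cannot give a p below 0.333.

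On chromosome 1 Col4a3 and Col4a4, chains of a basement membrane network known from kidney and epithelia, form the next pair. Col4a3 had 8.35 and 6.43 CPM in the deletion livers, against 3.21 and 2.06 CPM in the controls. The groups did not overlap, but Col4a3 did not pass (log2 fold change 1.48 ± 0.33, edgeR adjusted p = 0.0562). It passed with DESeq2 (0.0104), with library sizes alone (0.0275), with no filter on low counts (0.000192), and when control replicate 1 (0.00750) or control replicate 2 (0.0447) was left out. Col4a4 had 3.08 and 4.48 CPM against 3.08 and 1.51 CPM (log2 fold change 0.71 ± 0.44, edgeR adjusted p = 0.381). Col4a5, on the X chromosome, had 11.6 and 19.9 CPM against 13.2 and 6.66 CPM (0.66 ± 0.39, edgeR adjusted p = 0.363). Its neighbour Col4a6 had 1 and 2 counts in the deletion livers and 34 and 2 in the controls, so that control replicate 1 alone held nearly all of its reads.

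**Figure D4:**
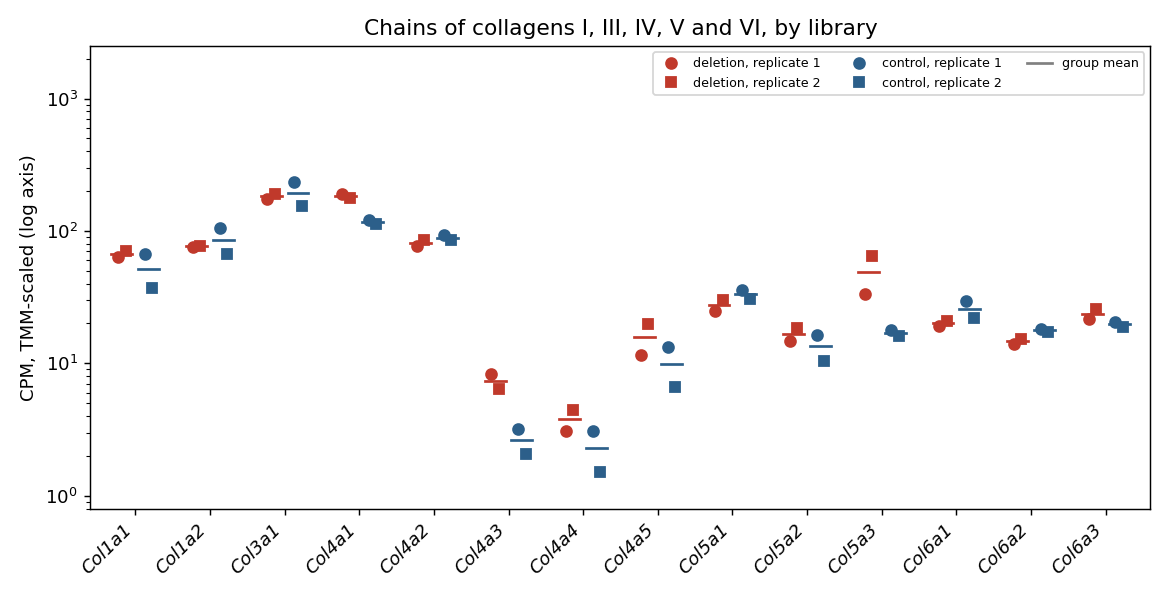
CPM (log axis) of chains of collagens I, III, IV, V and VI in each library, with deletion libraries on the left and controls on the right of each chain and bars at the group means. The type I and III chains overlap between groups, while Col5a3, Col4a1 and Col4a3 lie above both controls.

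Col18a1, the source of endostatin and the collagen gene with the highest CPM, had 929.5 and 921 CPM in the deletion livers, against 1358 and 1046 CPM in the controls (log2 fold change -0.38 ± 0.20, edgeR adjusted p = 0.310). It made up 51.7% and 49.6% of all collagen CPM in the deletion livers, against 59.3% and 57.6% in the controls. Col15a1, its close relative in vessel basement membranes, had 17.3 and 19.2 CPM against 11.2 and 3.37 CPM (log2 fold change 1.31 ± 0.50, edgeR adjusted p = 0.175). The filament chains Col6a1, Col6a2 and Col6a3 had log2 fold changes of -0.35 ± 0.19, -0.28 ± 0.16 and 0.26 ± 0.16, and 0 of them passed (edgeR adjusted p = 0.323, 0.353 and 0.400). Of the less abundant type VI chains, Col6a4 had 0 counts in every library, Col6a5 had 1.43 and 1.90 CPM in the deletion livers against 1.91 and 0.550 CPM in the controls, and Col6a6 had 1.65 and 2.37 CPM against 1.60 and 0.481 CPM. Among the chains below the filter, Col8a1 had 20 and 6 counts in the deletion livers against 9 and 9 in the controls, and Col9a3 had 4 and 8 counts against 11 and 9. Col14a1, a collagen that binds to the surface of fibrils, had 59.2 and 54.0 CPM in the deletion livers against 79.4 and 93.6 CPM in the controls (log2 fold change -0.61 ± 0.16, edgeR adjusted p = 0.0788).

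Col20a1, a collagen of the same fibril-associated group, had 26 and 33 counts (1.43 and 1.70 CPM) in the deletion livers, against 87 and 82 counts (5.37 and 5.63 CPM) in the controls. Both deletion livers lay well below both controls. Col20a1 fell by 1.81 ± 0.30 on the log2 scale (3.50-fold, edgeR adjusted p = 0.0266). The call ended when deletion replicate 1 or deletion replicate 2 was left out (adjusted p = 0.114 and 0.115). An RNA annotated on the same strand, BX649560.1, shares 741 bases with its 5′ end and had 82 and 56 counts in the deletion livers against 65 and 62 in the controls. Col7a1, which forms anchoring fibrils, had 13 and 15 counts against 37 and 25 and did not pass (log2 fold change -1.42 ± 0.42, edgeR adjusted p = 0.105).

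The enzymes that modify and cross-link collagen did not pass: 0 of 3 lysyl hydroxylases and 0 of 5 lysyl oxidases were called by edgeR. An unadjusted p under 0.05 was seen in 0 of the 8 genes, against 14% (higher) and 10.5% (lower) of all tested genes. Plod1 had 80.9 and 62.6 CPM in the deletion livers and 63.5 and 77.2 CPM in the controls (log2 fold change 0.03 ± 0.19). Plod3 had 42.6 and 44.4 CPM against 34.7 and 44.1 CPM (0.14 ± 0.17). Plod2, which hydroxylates lysines that enter the cross-links of fibrotic collagen, had 2.97 and 2.78 CPM against 2.71 and 2.54 CPM (0.13 ± 0.31). Loxl2, the lysyl oxidase with the highest CPM, had 218 and 299 counts in the deletion livers against 198 and 131 counts in the controls (log2 fold change 0.37 ± 0.24, edgeR adjusted p = 0.409). Loxl4 had 1.81 and 4.32 CPM against 0.740 and 1.99 CPM (1.18 ± 0.63, edgeR adjusted p = 0.313), and its groups overlapped. Loxl1, needed for elastic fibres, had 3.35 and 3.60 CPM in the deletion livers against 5.06 and 2.75 CPM in the controls. Lox itself had 21 and 22 counts against 42 and 9, so that its controls lay on both sides of the deletion livers. Loxl3 had 27 and 32 counts against 45 and 40 (log2 fold change -0.82 ± 0.34, edgeR adjusted p = 0.212).

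Around these members, a list of 69 tested genes of other matrix proteins and their processing had 5 genes that rose and 2 that fell. Its median log2 fold change was -0.06. Across all tested genes 4.41% rose and 2.16% fell. Nid1, the nidogen that links type IV collagen to laminin, had 171 and 279.8 CPM in the deletion livers against 34.4 and 33.6 CPM in the controls, a rise of 2.73 ± 0.26 on the log2 scale (edgeR adjusted p = 0.00613). Tgm2, a transglutaminase that cross-links matrix, rose 3.73-fold, and Plat, the plasminogen activator of tissue, rose 3.89-fold. Rhbdf1 and Rhbdf2, the iRhom proteins that carry ADAM17 to the cell surface, rose 2.81-fold and 2.87-fold, while Adam17 itself did not pass. Ltbp4, which binds latent TGF-beta, and Ecm1, also the stellate cell marker that was lower, fell by 0.97 ± 0.15 and 0.86 ± 0.17 on the log2 scale. The collagen chaperone Serpinh1 did not pass (0.07 ± 0.15 on the log2 scale, edgeR adjusted p = 0.816).

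Of 18 tested genes whose proteins are cut by ADAM10 or ADAM17, 5 rose and 1 fell, with a median log2 fold change of 0.62. The shares over all tested genes were 4.41% and 2.16%. Cdh1, the epithelial cadherin, rose 3.36-fold, the chemokine gene Cxcl16 3.68-fold, the adhesion gene Icam1 4.12-fold and the EGF receptor ligand gene Tgfa 1.87-fold. Areg, another such ligand, had 25 and 13 counts in the deletion livers against 0 in both controls, at least 5.22-fold higher against 3 counts in each control library (lower 95% counting limit 8.02-fold). Il6ra, the interleukin 6 receptor, had 55.9 and 84.7 CPM in the deletion livers against 193 and 175 CPM in the controls and fell by 1.39 ± 0.23 on the log2 scale (edgeR adjusted p = 0.0248). Of 6 tested genes of profibrotic growth factors, 4 did not pass, with log2 fold changes from -1.26 (Ccn2) to 0.92 (Pdgfb). Ccn2 had 8.85 and 4.27 CPM in the deletion livers against 15.2 and 16.2 CPM in the controls (edgeR adjusted p = 0.0926). The ligands Pdgfa and Tgfb2 rose 4.66-fold and 3.85-fold. Among these genes, those that lost their call with 1 library left out were Areg (deletion replicate 2, adjusted p = 0.132), Il6ra (deletion replicate 1, 0.0602), Tgfa (deletion replicates 1 and 2, 0.0850 and 0.124), Tgfb2 (0.195 and 0.0816), Tgm2 (0.111 and 0.110), Ltbp4 (0.0602 and 0.127), Ecm1 (0.0754 and 0.221) and Plat (0.203 and 0.222, and 0.0515 without control replicate 2).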

How the data were processed

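Per the labels' protocols, QuantSeq 3' libraries from oligo-dT primed RNA were read as single-end 75 bp reads and aligned with Bowtie2; mm10 and GRCm38 are named in the submitters' processing notes. The authors deposited raw counts per Ensembl gene (56953 rows, 4 libraries). For the counting step, program, strand setting and annotation were not stated in labels or headers, so antisense and overlapping genes are uncertain. Symbols and coordinates are from GENCODE M21 (GRCm38), which matched 52029 rows; where identifiers shared a symbol, the one with most counts kept it. Groups were compared with edgeR 4.0.16 (R 4.3.3; quasi-likelihood F test, two-sided, TMM, filterByExpr with min.count 10 and min.total.count 15, genotype as the only term), checked on simulated data. SEs were derived as |log2 fold change| / sqrt(F). DESeq2 1.42.0, limma-voom (limma 3.58.1), other scalings, filters, a covariate, a replicate block and left-out libraries were alternatives. A count of 3 per library corresponds to 0.154 to 0.206 CPM; the 95% limit for 0 counts is exact (Clopper-Pearson) and covers counting error only. Neither replicate pair was 1 library deposited under both names (chi-square per degree of freedom 25.3 for deletion, 38.9 for control). The members, lists and naming rule (members called, the 3 highest in each class, the 8 largest changes not called, the 4 untested members with most counts, partner chains and the clustered Mmp genes) were chosen with earlier results of these data known. Mmp2, Mmp17, Mmp25, Timp4, Mmp16, Col12a1, Col14a1 and Serpinh1 were named after their values were seen.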

Additional observations from a re-analysis of the deposited data

How the results depend on the processing

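Calls over all genes numbered 959, and 1647 with DESeq2, 1764 with library sizes alone, 2768 without a filter on low counts, 390 with the replicate block and 65 with the share of Y-linked RNA as a covariate; with 1 library left out they numbered 343 to 2081. Members called higher numbered 8, and 14 without a filter, 1 with the replicate block and 0 with the covariate, with 1 to 15 when 1 library was left out. Members called lower numbered 1, and 2 with DESeq2, 4 without a filter, 0 with the replicate block and 0 with the covariate, with 0 to 3 when 1 library was left out. The replicate numbers share only a name: deviations of same-numbered libraries had r = -0.136, and with the control numbers crossed, chosen after seeing the data, 1366 genes, 9 members higher and 1 lower were called. Genes that did not pass changed sign as follows, each still without a call. With library sizes alone these were Adamts10 (0.16), Col1a2 (0.12), Col3a1 (0.21), Col4a2 (0.16), Col5a1 (0.0226), Col6a2 (0.0135) and Loxl1 (0.12). With the covariate these were Col5a1 (0.0106), Plod1 (-0.37), Mmp17 (0.57) and Mmp19 (-0.32). Mmp19 stood at -0.00085 with DESeq2, -0.0014 with limma-voom, -0.00082 with DESeq2-type size factors and -0.0014 with the replicate block. With 1 library left out, log2 fold changes (the lone library being assumed to vary like the other group) spanned -0.0648 to 0.16 for Adam9, -0.28 to 0.00367 for Adamts10, -0.46 to 0.19 for Col1a2, -0.34 to 0.24 for Col3a1, -0.20 to 1.59 for Col6a5, -0.18 to 0.20 for Plod1, -0.0227 to 0.33 for Plod3, -0.54 to 0.34 for Loxl1 and -0.16 to 0.14 for Mmp19. The causes were not tested. Depth limits the members below the filter, which were not tested.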
